A study of Mus musculus with 2 samples.

Results

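The genes described here are 10 genes of RNA modification, fixed by name: the N4-acetylcytidine (ac4C) writer Nat10 and its partner Thumpd1, the N6-methyladenosine (m6A) writer subunits Mettl3, Mettl14 and Wtap, the m5C writer Nsun2, the m6A erasers Alkbh5 and Fto, and the m6A readers Ythdf1 and Ythdf2. They are 10 of the 21900 protein-coding genes of the RefSeq gene table (GRCm38.p6), and all 10 symbols were found there. A peak was assigned to a gene when its summit, the base with the strongest signal, lay in the gene's span from the first to the last base, introns included. By this rule the 10 genes held 9 of the 21192 peaks in the list.

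The study measured ac4C by acRIP-seq, in which RNA fragments that an antibody against ac4C pulls down are sequenced alongside untreated input RNA. Its 2 libraries came from polyA RNA of whole uteri, taken from wild-type mice at gestational day 4, with 1 ac4C immunoprecipitation library and 1 input control library. The age of the animals, and whether RNA was pooled, are not given in the sources used here. Neither group was replicated, so the values have no replicate check and no p-value was calculated across genes or peaks.

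Nat10 is the RNA acetyltransferase that makes ac4C, and Thumpd1 is an RNA-binding adapter that it needs to acetylate tRNA. m6A is a methyl mark on adenosine in mRNA. It is written by Mettl3, the catalytic subunit, with its partner Mettl14, and Wtap holds the writer complex together. Alkbh5 and Fto are demethylases that take the mark off, and YTH proteins such as Ythdf1 and Ythdf2 bind it and affect the fate of the mRNA. Nsun2 methylates cytidine to m5C in tRNA and mRNA. In the mouse uterus the m6A writer Mettl3 is known to be needed for implantation, through progesterone signalling.

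The fold enrichment of each peak, the signal at the summit over the background there, is the value in the authors' deposited table. Over all peaks its median was 5.58 (interquartile range 4.33 to 7.38). The fragments behind each summit, which follow from its fold enrichment and p together, numbered 4 to 390 with a median of 22. Intervals are exact 95% Poisson intervals of the number of fragments, in which the background has no error of its own. They cover counting error of the immunoprecipitation only. Of 28 markers of uterine cell types, 24 held a peak, where 30.7% of all protein-coding genes did. That share counts every protein-coding gene, whether or not its RNA was in the uterus, so it may be low for expressed genes. The markers with a peak were 7 of 7 stromal, 6 of 6 smooth muscle, 5 of 6 epithelial, 3 of 4 endothelial and 3 of 5 immune markers. Epcam, Tek, Ptprc and Adgre1 had none. A peak shows that RNA from the span of the gene was there, but not from which strand or which of any overlapping genes. Absence of a peak does not show absence of RNA. In a whole tissue, fewer cells of a type and less RNA per cell cannot be told apart.

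Among the 10 genes, peaks lay in those of the erasers and readers and in none of those of the writers and the partner Thumpd1. Of the 10 genes, 4 held a peak (40%, 95% Wilson interval 16.8 to 68.7%), against 30.7% of all protein-coding genes, which lies inside that interval. All 4 were m6A erasers or readers, namely Alkbh5 with 4 peaks, Fto with 3, Ythdf1 with 1 and Ythdf2 with 1. The other 6 genes, Nat10, Thumpd1, Mettl3, Mettl14, Wtap and Nsun2, held 0 peaks. Set out by mark, 0 of 2 ac4C genes and 4 of 8 m6A or m5C genes held a peak, and within m6A it was 0 of 3 writer subunits, 2 of 2 erasers and 2 of 2 readers. These are counts over very few genes, and the difference between writers and the rest was not tested. The Wilson interval treats the 10 genes as a random draw, which they were not, so it is no test against the 30.7%. With peaks restricted to a −log10 q of at least 10, the genes with a peak were 2, Alkbh5 with 4 peaks and Fto with 1, where 17.6% of all protein-coding genes kept a peak.

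**Figure D1:**
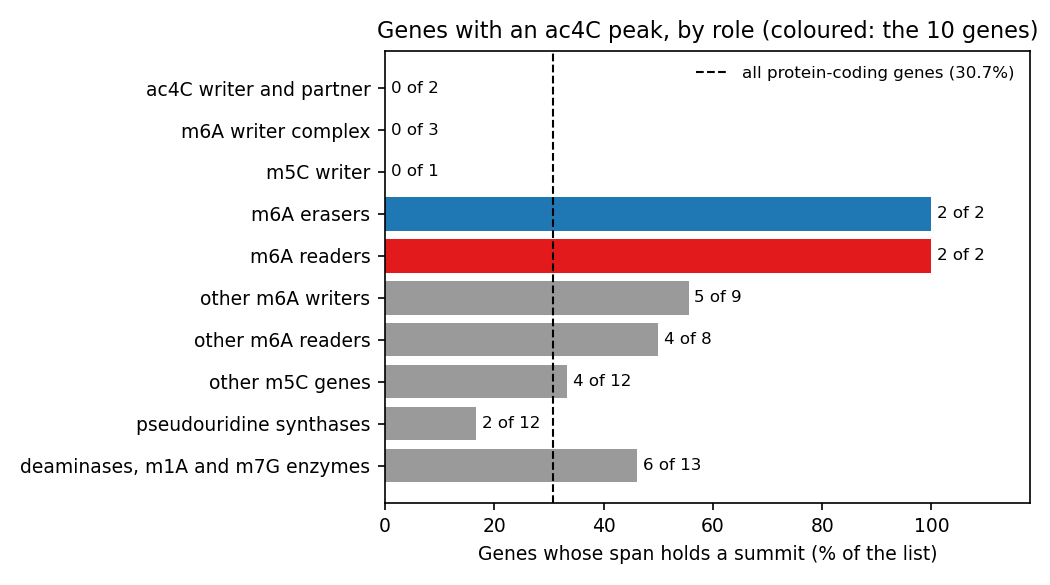
Share of genes whose span holds a peak summit, in percent of each list, with the number of genes beside each bar. Coloured bars are the roles among the 10 genes, grey bars are 5 lists of other RNA modification genes, and the dashed line is the 30.7% of all protein-coding genes. The 3 writer roles stand at 0, and both coloured bars are at 100% on 2 genes each.

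The ac4C writer and its partner had no peak of their own. Nat10 (NCBI gene 98956) spans 41.7 kb of chromosome 2, from 103721258 to 103762954, and is transcribed from the minus strand. The nearest peak lay 6.62 kb before its start, in the neighbouring gene Caprin1, with a fold enrichment of 3.25. Thumpd1 (NCBI gene 233802) spans 8.53 kb of chromosome 7, from 119715093 to 119723619, also on the minus strand, and is the shortest of the 10 genes. Its nearest peak lay 16.41 kb before its start, in Ppp1ccb, at 7.45. Extending both spans by 2000 bases at each end, or counting any peak that touched a span, gave 0 peaks as well.

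The core subunits of the m6A writer were likewise without a peak. Mettl3 (NCBI gene 56335; chromosome 14, 52294841 to 52308741, minus strand) spans 13.9 kb. It had the closest neighbouring peak of the 6 genes, 2.69 kb past its end in Tox4, with a fold enrichment of 4.998. Mettl14 (NCBI gene 210529; chromosome 3, 123368295 to 123385990) spans 17.7 kb, and the nearest peak was 62.46 kb away in Sec24d. Wtap (NCBI gene 60532; chromosome 17, 12966799 to 12992543, minus strand) spans 25.7 kb, and the nearest peak was 22.91 kb past its end in Acat2. The m5C writer Nsun2 (NCBI gene 28114; chromosome 13, 69612016 to 69635780, plus strand) spans 23.8 kb and stood farthest from any peak, 77.84 kb from one in Tent4a.

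A gene without a peak has no value in the list, neither of signal nor of background, so its RNA level is unknown here. Enrichment in these 6 genes was not detectable at this depth, which does not show that it is absent. In the range of background in which the 9 peaks lay, the list reached down to a fold enrichment of 2.38 among 14824 peaks. This is the lowest value over all backgrounds from 0.762 to 6.92 fragments. It is not a detection limit for the 6 genes, as their background is unknown. Of the 8902 protein-coding genes with a span between those of Thumpd1 and Nat10, 31.9% held a peak, so most genes of this size had none. That share, too, includes genes whose RNA may not have been in the uterus, and a share over expressed genes was not determined.

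Alkbh5 (NCBI gene 268420; chromosome 11, 60537683 to 60558512, plus strand), an m6A demethylase, had the most peaks of the 10 genes and, by the deposited fold enrichment, the strongest one. At least 4 peaks were found in 8.09% of all protein-coding genes. Its first peak, from 60538022 to 60539065, was 1044 bp wide, wider than 95.0% of all peaks. The summit lay 763 bases after the gene start, and its fold enrichment was 8.66 (95% interval 6.20 to 11.8) on 38 fragments over a background of 3.50. This value was above that of 84.4% of all peaks.

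The other 3 peaks of Alkbh5 lay together near the far end of the gene, from 76.8% to 85.9% of its span, with their summits inside 1.90 kb. The peak from 60553576 to 60553800 stood at 7.49 (5.31 to 10.3) on 36 fragments. After a gap of 294 bases came the peak from 60554095 to 60554359, at 5.95 (4.36 to 7.94) on 44 fragments. The last, from 60555413 to 60555699, stood at 6.87 (5.15 to 8.995) on 51 fragments, the most of any peak in the 10 genes. These 3 peaks were 225 to 287 bp wide, and the intervals of all 4 peaks overlapped, so no order among them was resolved. All 4 had a −log10 q between 18.6 and 24.5.

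Fto (NCBI gene 26383; chromosome 8, 91313367 to 91668433, plus strand), the other demethylase, spans 355 kb, far more than the other 9 genes, and its 3 peaks were spread widely. At least 3 peaks were found in 11.9% of all protein-coding genes. The first peak, from 91327765 to 91328100, lay 14.6 kb after the gene start, with a fold enrichment of 6.83 (4.08 to 10.8) on 16 fragments. The second, from 91409210 to 91409745, lay 81.7 kb farther on, at 7.20 (5.27 to 9.61) on 44 fragments. The third, from 91666215 to 91666437, lay 2.05 kb before the gene end, at 2.91 (1.85 to 4.38) on 21 fragments. The interval of the third peak lay below that of the second. These intervals leave out counting error of the background.

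The third Fto peak was the weakest of the 9 peaks, with a fold enrichment above that of only 4.11% of all peaks and a −log10 q of 3.19. The first and second lay above 68.6% and 73.3% of all peaks. The spans give no exons, so whether the peaks at 4.11% and 27.1% of the Fto span lay in exons or introns was not determined. The list gives no strand, so RNA of the opposite strand cannot be told apart at any of the 9 peaks. None of the 9 summits lay in the span of another gene of the table.

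The YTH readers had a single peak each, at different places. Ythdf1 (NCBI gene 228994; chromosome 2, 180904377 to 180920936, minus strand), a cytoplasmic m6A reader linked to translation, held a peak from 180910952 to 180911740. It was 789 bp wide with its summit at 57.5% of the span, and its fold enrichment was 4.17 (2.89 to 5.83) on 32 fragments over a background of 6.92, the highest background of the 9 peaks. Ythdf2 (NCBI gene 213541; chromosome 4, 132184916 to 132212256, minus strand), a reader linked to mRNA decay, held a peak from 132211780 to 132212101. Its summit lay 313 bases after the gene start, and its fold enrichment was 7.38 (4.09 to 12.5) on 12 fragments over a background of 0.762, the fewest fragments and the lowest background of the 9.

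The Ythdf2 peak had the higher fold enrichment on the thinner signal, and the Ythdf1 peak had the lower fold enrichment on more fragments. Their intervals of the deposited fold enrichment overlapped. That value adds 1 to signal and background, which lowers it most where the background is low. As fragments over background with nothing added, Ythdf2 stood at 15.8 (8.14 to 27.5) and Ythdf1 at 4.63 (3.16 to 6.53), and these intervals did not overlap, so whether the readers differed depends on that choice. At a −log10 q of 9.09 for Ythdf1 and 8.63 for Ythdf2, both would leave a list that ended at 10.

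**Figure D2:**
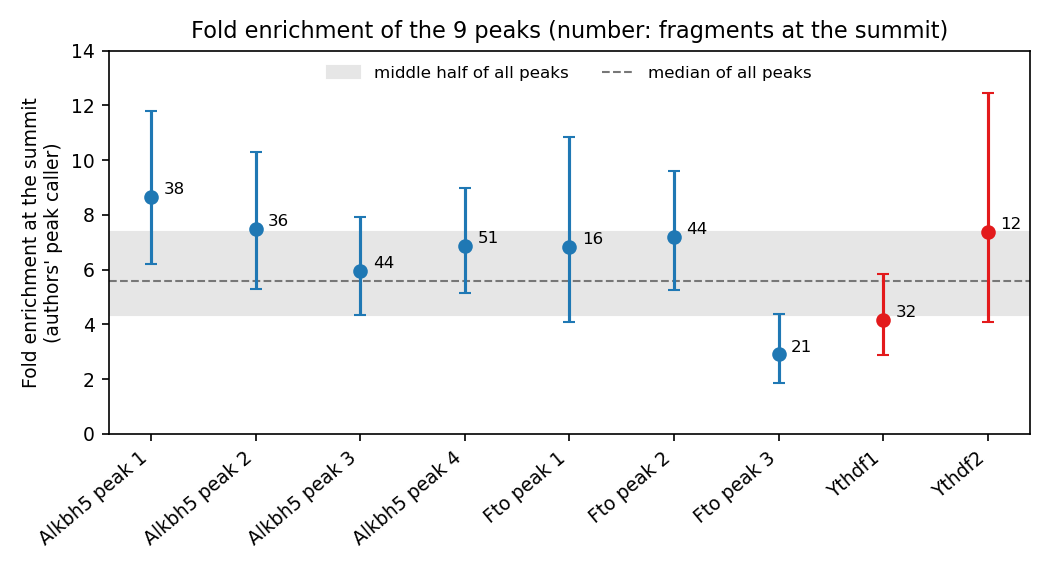
Fold enrichment at the summit of the 9 peaks, as given by the authors' peak caller, with the 95% counting interval as error bar and the number of fragments beside each point. The dashed line and grey band are the median and middle part (interquartile range) of all peaks, and blue marks erasers and red readers. The third Fto peak, at 2.91, lies lowest and the first Alkbh5 peak, at 8.66, highest.

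The 9 peaks were of ordinary strength for the list. Their deposited fold enrichments ran from 2.91 to 8.66 with a median of 6.87, and on this scale 7 of 9 lay above the median of all peaks. Of the 36 pairs of these peaks, 5 had intervals that did not overlap. In 4 of the 5 the third Fto peak was the lower one, and in the fifth the Ythdf1 peak lay below the first Alkbh5 peak. Taken per gene at the highest peak, the order was Alkbh5 at 8.66, Ythdf2 at 7.38, Fto at 7.20 and Ythdf1 at 4.17. In this order only Alkbh5 and Ythdf1 differed beyond their intervals. With nothing added, Ythdf2 at 15.8 led Alkbh5 at 10.9 (7.68 to 14.9) and Fto at 10.8 (6.15 to 17.5, now its first peak), with overlapping intervals. On that scale 8 of the 36 pairs were apart, and the median of all peaks was 7.97. The third and last Alkbh5 peaks, at 6.7 and 7.77, then joined the third Fto peak and the Ythdf1 peak below this median. The first Alkbh5 peak was above 68.2% of all peaks.

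The median over these 4 genes was 7.29, against 6.61 (interquartile range 5.05 to 9.06) over all protein-coding genes with a peak. With nothing added these medians were 10.9 and 10.8. Of those genes, 72.9% had a lower highest peak than Alkbh5, 60.3% than Ythdf2, 58.2% than Fto and 12.2% than Ythdf1. All 4 genes lay below the upper quartile.

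By their medians, the 9 peaks lay on deeper signal than the list, but not each of them did. The background at the 9 summits ran from 0.762 to 6.92 fragments with a median of 5.25, above the median of 2.63 over all peaks. The fragments ran from 12 to 51 with a median of 36, also above the 22 of all peaks. At the same background of 6.57 fragments the third Fto peak stood at 2.91, the third Alkbh5 peak at 5.95 and the last Alkbh5 peak at 6.87. The interval of the third Fto peak overlapped that of the third Alkbh5 peak and lay below that of the last. The median fold enrichment of all peaks in the same range of background was 5.85.

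**Figure D3:**
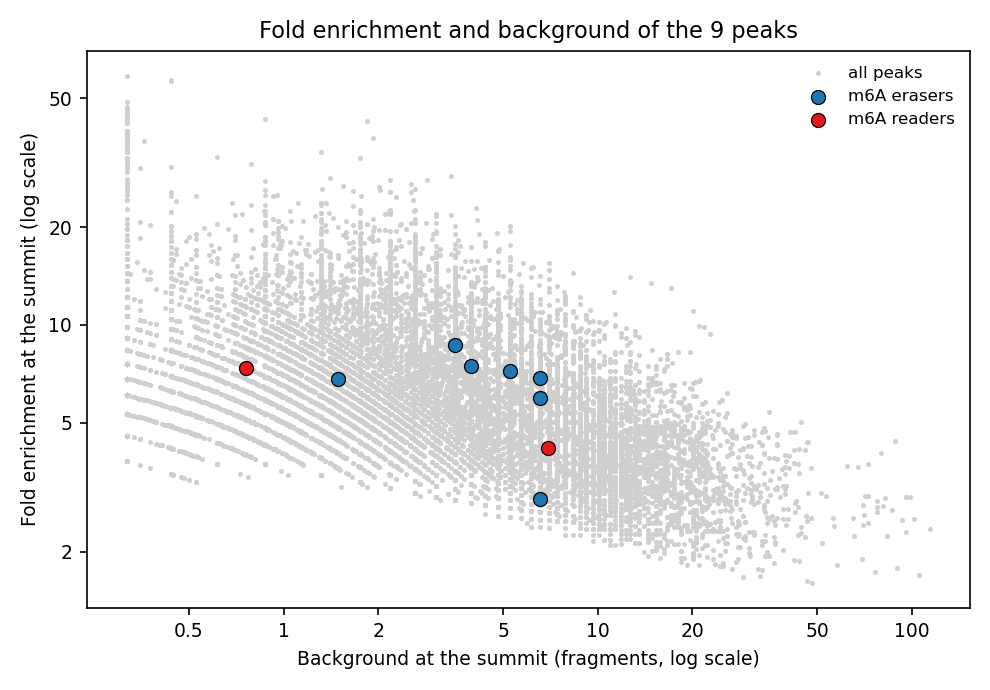
Fold enrichment at the summit against background at the summit in fragments, both on log scales, with every peak of the list in grey and the peaks in eraser (blue) and reader (red) genes on top. The 9 peaks lie inside the cloud of the list, with Ythdf2 at the left at a background of 0.762 and Ythdf1 at the right at 6.92.

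Along the genes, 3 summits lay early in the span as a share of its length, and the other 6 were scattered from 27.1% to 99.4% of it. Summits in the first 10% of the span numbered 3 of 9 (33.3%), those of Alkbh5 at 3.66%, Fto at 4.11% and Ythdf2 at 1.14%. Of the 15514 summits that lay in a single protein-coding gene of known strand, 11.0% did so. In the last 10% lay 1 of 9, the third Fto summit at 99.4%, against 25.0% over all these summits. The remaining 5 lay between. Within 1000 bases of the gene start lay 2 of 9, in Alkbh5 and Ythdf2, against 9.20% of all. In Fto a place of 4.11% is 14.6 kb into the gene, so its first peak was not close to the start in bases.

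The median place of the 9 summits was 57.5% of the span, against 70.1% over all such summits. This median rests on few peaks and no direction is read from it. It was 27.1% with peaks at or above the median fold enrichment and 15.4% when each gene was given by its highest peak only, but 76.8% when a −log10 q of 10 was required and 78.2% with peaks of at most 500 bases. The highest peak was the one nearest the gene start in Alkbh5, and the middle one in Fto.

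**Figure D4:**
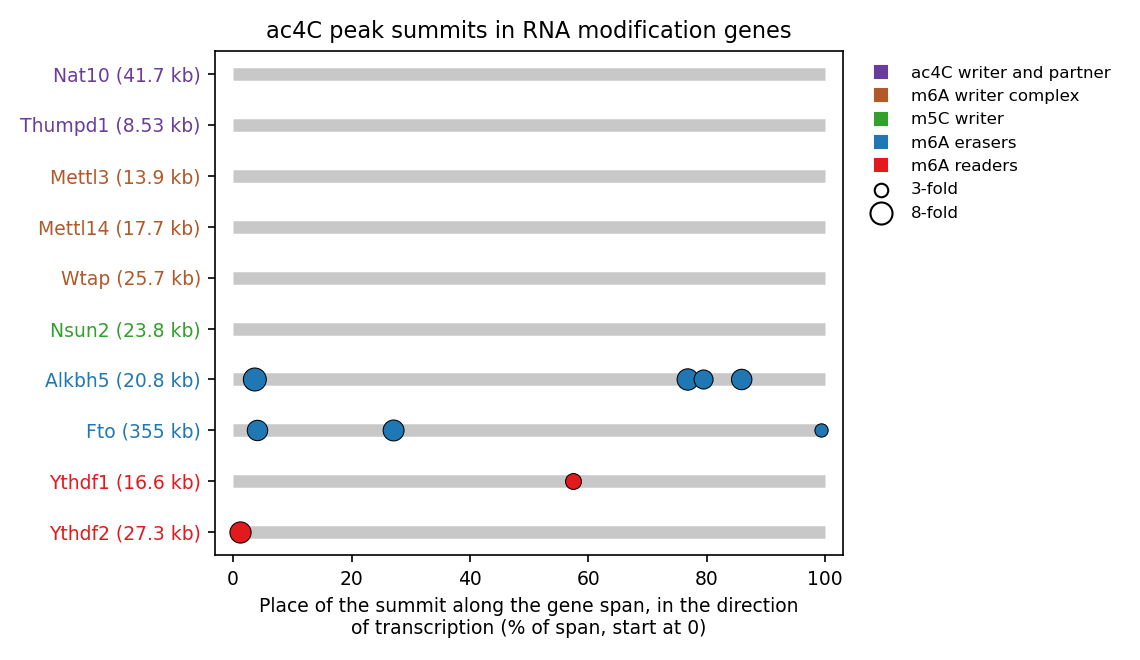
Place of each summit along the span of its gene in the direction of transcription, in percent, with the start at 0. The area of a point grows with fold enrichment and colour gives the role. The 6 writer genes have empty bars, Alkbh5 has 1 peak near the start and 3 together toward the end, and the 3 Fto peaks are far apart.

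Length of the gene did not order the number of peaks among the 10. Alkbh5 held 1.92 peaks per 10 kb, Ythdf1 0.602, Ythdf2 0.366 and Fto 0.0845, where the median of all protein-coding genes with a peak was 0.847. The spans of the 4 genes with a peak ran from 16.6 to 355 kb with a median of 24.1 kb. Those of the 6 genes with none ran from 8.53 to 41.7 kb with a median of 20.8 kb, so the ranges overlapped.

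**Figure D5:**
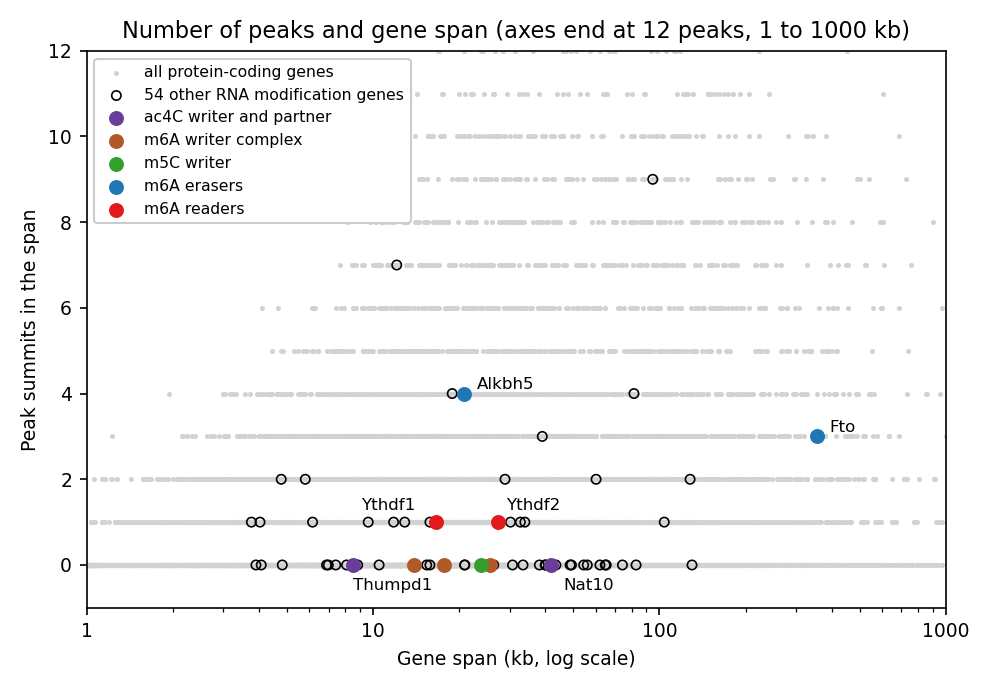
Number of peak summits against gene span in kb on a log scale, with all protein-coding genes in grey, 54 other RNA modification genes as open circles and the 10 genes in colour by role. Genes beyond 12 peaks or outside 1 to 1000 kb are not drawn. Alkbh5 reaches 4 peaks at 20.8 kb, while writer genes of similar span lie at 0.

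The rest of the same pathways was read from lists of 54 other RNA modification genes. Of these, 21 held a peak (38.9%, 95% Wilson interval 27.0 to 52.2%), and they held 48 peaks. With only summits in the span of no other gene counted, 19 held a peak. The share of all protein-coding genes, 30.7%, lay inside the interval, which is no test, as the genes were chosen by name. The median fold enrichment at the highest peak was 6.26, near the 6.61 of all genes with a peak.

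Among the other m6A writers, 5 of 9 held a peak, against 30.7% of all protein-coding genes. Of the subunits of the writer complex beside Mettl3 and Mettl14, 4 of 6 did, with Wtap counted. The absence of peaks in Mettl3, Mettl14 and Wtap thus did not extend to the whole writer complex. Rbm15 and Rbm15b, RNA-binding subunits that guide the complex, stood at 6.51 (4.56 to 9.02) and 7.78 (5.33 to 11.0) at their highest peaks. The subunits Zc3h13, at 5.16 (3.51 to 7.33), and Cbll1, at 5.36 (3.54 to 7.81), held a peak too, and the scaffold subunit Virma held none. Pcif1, which methylates the adenosine next to the mRNA cap, held 7 peaks in a span of 12.1 kb, with 7.48 (5.19 to 10.5) at the highest. The summits of peaks 1, 2, 6 and 7, counted from the gene start, lay also in the span of 4930445K14Rik or Gm46775. RNA of those genes cannot be told apart there, while the highest peak lay in no other gene. The methyltransferase genes Mettl16, Mettl5 and Zcchc4 held none.

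Among the other m6A readers, 4 of 8 held a single peak each, with a median fold enrichment of 3.72. Of all protein-coding genes, 30.7% held a peak. With Ythdf1 and Ythdf2, 4 of 5 YTH genes held a peak, and Ythdc2 did not. Ythdf3, the third cytoplasmic YTH reader, stood at 2.73 (2.06 to 3.57) on 52 fragments over a background of 18.4, an interval below that of Ythdf2. The nuclear reader Ythdc1 stood at 4.70 (2.71 to 7.68), and like that of Ythdf2 its summit lay close to the gene start, 412 bases after it. Hnrnpa2b1 stood at 2.56 (1.88 to 3.40) and Igf2bp2 at 5.19 (2.81 to 8.94), while Igf2bp1, Igf2bp3 and Hnrnpc held none.

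Among the other m5C genes, 4 of 12 held a peak, near the 30.7% of all protein-coding genes, and they held 18 peaks in all. Of the NSUN methyltransferase family with Nsun2 included, 1 of 7 did, namely Nop2, a nucleolar rRNA methyltransferase, at 5.99 (3.57 to 9.51). Nsun3, Nsun4, Nsun5, Nsun6 and Nsun7 were like Nsun2 without a peak, as were Trdmt1, Alyref and Tet1. By the deposited fold enrichment, the strongest peaks of all 64 genes lay in this list. Ybx1, an RNA-binding protein that also binds m5C, held a peak at 20.4 (15.4 to 26.4) on 55 fragments, 1896 bases after the gene start. Tet3, an oxidase of methylated cytosine, held 9 peaks, the strongest at 14.1 (11.0 to 17.7) and 2262 bp wide. On the same scale the Ybx1 interval lay above those of all 9 peaks in the erasers and readers, and the Tet3 interval overlapped that of the first Alkbh5 peak and that of Ythdf2.

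The other Ybx1 peaks were weak on deep background. They stood at 2.26, 2.41 and 3.88 over backgrounds of 43.3, 20.6 and 20.1 fragments. Tet2, a second oxidase, held 4 peaks from 2.45 to 4.08.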

How the data were processed

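Peaks were those of 1 list for the series. The aligner HISAT2 2.2.1, the peak caller MACS3 3.0.0a7 and the build mm10 (GRCm38) are named in the submitters' processing notes, and their settings are not given in the sources used here. The deposited list gives per peak a fold enrichment (a ratio to background) and a −log10 p-value and −log10 q-value, all made by the authors' peak caller. The deposited score was not used. The largest q was 0.0499. The authors called peaks in 1 immunoprecipitation library, and which background was used is not stated.

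Fragments at a summit were recovered as the whole number for which fold enrichment, (fragments + 1) / (background + 1), and the Poisson p both matched, to a relative miss of 1e-05 in the −log10 p. This held for 21192 of 21192 peaks, with a second match in 0. On data simulated with the same formula it was right in 100% of 2000 peaks, which checks the calculation and not whether the deposited values follow that formula. PCR copies cannot be told from separate molecules.

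Gene spans came from RefSeq (GRCm38.p6), and strand from its promoter table, which gave it for 9 of the 10 genes and 79.9% of protein-coding genes. Exons and genome sequence were not used here. Fold enrichment was used only to describe, rank and filter peaks. Named were the 10 genes and, of 54 others, all m6A writers and readers, the NSUN genes and the 10 with the highest fold enrichment. The other genes of these lists, the neighbours and the markers without a peak were named after their values were seen. The genes and lists were chosen with earlier results of these data known. Python 3.11.15, pandas 2.3.3 and scipy 1.17.1 were used.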

Additional observations from a re-analysis of the deposited data

How the results depend on the processing

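The alternatives filtered the list (−log10 q of at least 10, fold enrichment at or above the median of all peaks, width of at most 500 bases) or changed what counts as a peak in a gene (1 base in the span, the whole peak in it, the span extended by 2000 bases, no other gene at the summit). Under the q filter the number of the 10 genes with a peak fell from 4 to 2, their peaks from 9 to 5 and the other RNA modification genes with a peak from 21 to 10. With the fold filter the last count was 12. Both follow from fewer peaks, and the share of all protein-coding genes with a peak fell from 30.7% to 17.6% under the q filter. Nat10 and Thumpd1 held 0 peaks with 1 base in the span and with the extended span, the alternatives that could have added a peak. The median fold enrichment, 7.29, ran from 7.01 to 7.93, and was 10.9 as fragments over background with no pseudocount, an alternative chosen after seeing the data. That rise is by construction, as all genes with a peak moved from 6.61 to 10.8. The median place from 15.4 to 78.2%. The thinnest of the 9 peaks rested on 12 fragments, and the effect of depth on the counts was not tested. No paired analysis was possible because each group had 1 library.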

Other observations

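Among enzymes of other RNA modifications, peaks were found in 2 of 12 genes of pseudouridine synthases, the enzymes that turn uridine into its isomer. These were Rpusd3 at 8.38 (95% interval 4.64 to 14.2) and Rpusd1 at 6.62 (3.67 to 11.2), on 12 fragments each. Dkc1, Pus1, Pus3, Pus7, Pus7l, Pus10, Trub1, Trub2, Rpusd2 and Rpusd4 held none. The share of all protein-coding genes was 30.7%.

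Of the 13 deaminases and m1A or m7G enzymes, 6 held a peak, against 30.7% of all protein-coding genes. The RNA-editing deaminases Adarb1, at 8.11 (4.59 to 13.5), and Adar, with 3 peaks of at most 4.13, were among them. The m1A methyltransferase subunits Trmt6 and Trmt61a stood at 7.67 (4.50 to 12.3) on 15 fragments and 7.65 (4.14 to 13.2) on 11. Both subunits of that enzyme thus held a peak. The m6A pair Mettl3 and Mettl14 held none, and a difference between the pairs was not tested. Adat3 held 2 peaks, at 6.26 on 8 fragments and 3.93 on 5, and both lay where the span of Scamp4 overlaps and cannot be told apart from it. Alkbh3, a relative of Alkbh5, stood at 3.16 (1.89 to 5.02), and Alkbh1 held none. The Alkbh3 summit lay also in the span of Alkbh3os1 and cannot be told apart from it. The m7G enzyme genes Mettl1, Wdr4 and Rnmt held none.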
